A study of Mus musculus with 5 samples.

Results

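The transcripts of 47 genes for the noncollagenous extracellular matrix were followed in mouse kidneys 11 days after unilateral ischemia-reperfusion injury (UIRI), among 35478 genes listed. The genes were chosen by name and function, with no measured value in the rule, although earlier results of these data were known. They comprise 12 matricellular and adhesive glycoproteins, 11 components of elastic fibres and microfibrils, 4 latent TGF-β binding proteins, 8 proteoglycans, 5 lysyl oxidases and 7 proteins that modify or process procollagen.

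Each library was made from the kidney cortex of 1 mouse. The control group was 2 Prdm16fl/fl mice (mice 1 and 3), and the knockout group was 3 Ksp-Cre/Prdm16fl/fl mice (mice 1, 2 and 3). All mice were male and 7 to 8 weeks old, with the strain labelled C57BL/6J;129 (the sample titles give C57BL/6J), and both groups carried the floxed Prdm16 allele, in which exon 9 is flanked by loxP sites. The Ksp promoter drives Cre in tubular epithelial cells, so interstitial cells kept Prdm16. Both groups also had the same surgery, in which the left renal pedicle was clamped for 35 minutes at 38.5 °C and the right kidney was removed on day 10. Libraries of uninjured kidneys were not analysed here, so every difference below is between genotypes after injury.

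Fibroblasts and pericytes of the kidney interstitium make many of these proteins after injury. Fibronectin and the matricellular proteins give cells a provisional matrix, fibrillins and elastin build elastic fibres, and the latent TGF-β binding proteins tether TGF-β to them. Small leucine-rich proteoglycans such as decorin and biglycan sit on collagen fibrils. Prolyl and lysyl hydroxylases and the chaperone HSP47 prepare procollagen in the cell, BMP1 and its enhancer PCPE-1 trim it outside, and lysyl oxidases crosslink the fibrils.

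Total counts ranged from 14939040 to 16425161 per library. Prdm16 had 25.3 and 20.0 CPM (TMM-scaled counts per 1000000) in the control libraries and 17.1, 17.0 and 18.0 in the knockout libraries, which did not overlap (log2 fold change −0.38, SE 0.15, adjusted p = 0.259, edgeR). Its count covers the whole gene, whereas the deletion removes 1 exon in tubular cells. The library of Ksp-Cre/Prdm16fl/fl mouse 3 stood apart from the rest. Its log2 CPM correlated with those of the other libraries at r = 0.943 to 0.960 across the genes tested, against 0.991 between the other knockout libraries, and the first principal component (56.4% of the variance) placed it at 72.2 and the other 4 between −36.2 and −1.92. The main results are therefore also given without it.

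Promoter windows from RefSeq (GRCm38.p6, 250 bases before to 50 after a start site) were at hand for 31 of the 47 genes, with 42 windows in all. The 4 genes shown are those with a window that had the smallest unadjusted p between genotypes, so that their start regions can be read beside the values below. Capitals mark a TATAAA match in Tnc and a GGAATG match, the core of TEAD sites, in P3h1. No searched motif lies in the windows of Fbln2 and Fbn1. The windows are Fbln2 at chr6:91212514-91212813 (plus strand), Fbn1 at chr2:125506389-125506688 (minus strand), Tnc at chr4:64046966-64047265 (minus strand) and P3h1 at chr4:119232665-119232964 (plus strand), each written 5′ to 3′ on the strand of its gene.
Fbln2: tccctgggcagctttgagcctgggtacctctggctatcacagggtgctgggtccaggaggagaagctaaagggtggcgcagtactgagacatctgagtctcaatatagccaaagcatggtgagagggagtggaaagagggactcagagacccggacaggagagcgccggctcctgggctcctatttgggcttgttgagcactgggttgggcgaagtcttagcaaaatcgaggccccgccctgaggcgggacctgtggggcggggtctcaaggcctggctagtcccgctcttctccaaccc
Fbn1: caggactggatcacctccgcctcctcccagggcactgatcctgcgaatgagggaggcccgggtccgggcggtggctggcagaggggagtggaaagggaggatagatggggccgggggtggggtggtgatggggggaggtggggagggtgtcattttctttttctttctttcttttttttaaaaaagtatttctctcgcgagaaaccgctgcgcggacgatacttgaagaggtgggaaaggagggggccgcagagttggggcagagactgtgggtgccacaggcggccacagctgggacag
Tnc: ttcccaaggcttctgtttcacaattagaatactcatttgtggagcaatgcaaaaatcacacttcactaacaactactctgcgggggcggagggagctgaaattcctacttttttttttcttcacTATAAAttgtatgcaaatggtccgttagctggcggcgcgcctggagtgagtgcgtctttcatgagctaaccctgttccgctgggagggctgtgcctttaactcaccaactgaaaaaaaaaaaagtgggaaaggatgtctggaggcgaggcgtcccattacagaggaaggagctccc
P3h1: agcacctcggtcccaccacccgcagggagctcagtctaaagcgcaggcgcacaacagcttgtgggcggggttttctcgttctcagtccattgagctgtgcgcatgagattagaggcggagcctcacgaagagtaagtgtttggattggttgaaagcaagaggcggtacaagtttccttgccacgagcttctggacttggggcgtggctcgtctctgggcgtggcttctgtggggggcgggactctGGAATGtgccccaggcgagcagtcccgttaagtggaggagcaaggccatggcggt

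Both strands of each window were searched for 4 motifs. TATAAA was in 9 of the 42 windows (21.4%, against 13.6% of all 32851 windows), those of Aspn, Ecm1, Ogn, Plod1, Postn, Thbs2, Tnc and Vtn. In Tnc the match began 126 bases before the start site. GGAATG was in 4 windows (9.52% against 14.7%), and in P3h1 it began 5 bases before the start site. TGANTCA, the AP-1 motif, was in 3 windows (7.14% against 7.81%), those of Ecm1, Efemp1 and Ltbp3. The SMAD-binding CAGA box AGCCAGACA was in 0 windows (against 0.387%). These matches are descriptions of the letters and not evidence of binding.

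Matrix transcripts leaned towards higher values in the Ksp-Cre/Prdm16fl/fl kidneys, but no gene of the group passed the test across all genes. Of 47 genes, 45 had enough counts to be tested. The exceptions were Vtn (vitronectin), with 0 to 3 counts per library, and Cthrc1, with 5 to 10. The log2 fold change was above 0 in 38 genes and below 0 in 7, a share of 84.4% above 0 against 54.0% of all 16394 genes tested. Its median was 0.32, against 0.04 over all genes. It ranged from −1.06 for Fmod to 2.29 for Lox.

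In edgeR's quasi-likelihood test, 0 of the 45 genes reached an adjusted p under 0.05, with or without a log2 fold change of at least 1. Over all genes tested, 0.0793% were called higher and 0.628% lower by both thresholds (0.708% in all), and 0.104% were higher and 0.872% lower by the adjusted p alone. At an unadjusted p under 0.05, 11 of the 45 were higher (24.4%, against a background of 7.64%) and 0 were lower (background 11.2%). DESeq2 called 3 genes higher by both thresholds (Lox, Tnc and Fbln2; background 0.771% higher and 2.43% lower), and Fbn1 and Bmp1 also reached its adjusted p. Without Ksp-Cre/Prdm16fl/fl mouse 3, edgeR called 6 genes higher by both thresholds (Fbln2, Lox, Ltbp2, Mfap5, Thbs1 and Tnc) and 0 lower. The background by the same rule was 1.43% and 3.1%. By the adjusted p alone, 18 of the 45 genes passed in that fit. The share of all genes by that weaker rule was not counted, so the 18 have no background here. The genes at an unadjusted p under 0.05 then numbered 25 higher and 1 lower, against a background of 16.5% and 17.7%. Without knockout mouse 1, 6 were higher and 1 lower at an unadjusted p under 0.05, and 0 were called. In that fit 2514 of all 16201 genes tested were under 0.05, in either direction. Without knockout mouse 1 or 2, 0 of the 45 genes reached an adjusted p under 0.05, and 0 of all genes passed both thresholds. The adjusted p-values under 0.05 given below without knockout mouse 3 were thus not reached without either of the other knockout mice. Without control mouse 1, which leaves control mouse 3 alone, the median log2 fold change of the matrix genes was 0.18. It was then above 0 in 31 and below 0 in 14. Scaling by library size moved the median of all genes to 0.15 and that of the matrix genes to 0.45, and left 4 genes below 0.

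**Figure D1:**
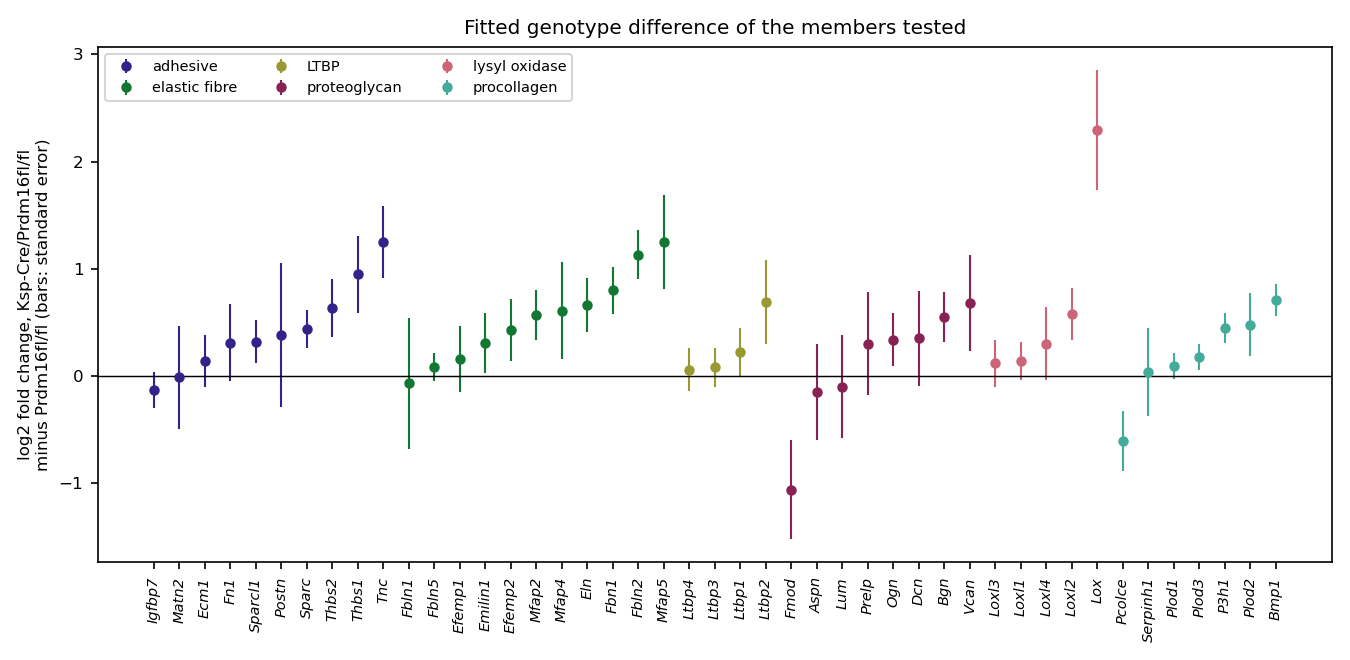
Log2 fold change (Ksp-Cre/Prdm16fl/fl minus Prdm16fl/fl, edgeR, y axis) of the 45 genes tested, grouped by role and ordered within each role. Points are fitted values and bars are standard errors. 38 points lie above 0, and Lox at 2.29 and Fmod at −1.06 are the extremes.

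The lean was not shared by all libraries. In 32 of the 45 genes (71.1%) knockout mice 1 and 2 both lay above both controls, and in 2 (4.44%) both lay below. Over all genes tested these shares were 32.6% and 30.7%. Knockout mouse 3 lay above both controls in 13 genes (28.9%), between them in 16 and below both in 16 (35.6%), against 42.8% above and 43.2% below over all genes. As a result, all 3 knockout libraries lay above both controls in 12 genes (26.7%, background 20.3%) and below both in 2, Fmod and Pcolce (background 21.3%). The controls differed among themselves as well. Control mouse 3 was above control mouse 1 in 41 of the 45 genes (91.1%, against 51.6% of all genes), by a median log2 difference of 0.23, against 0.01 over all genes.

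**Figure D2:**
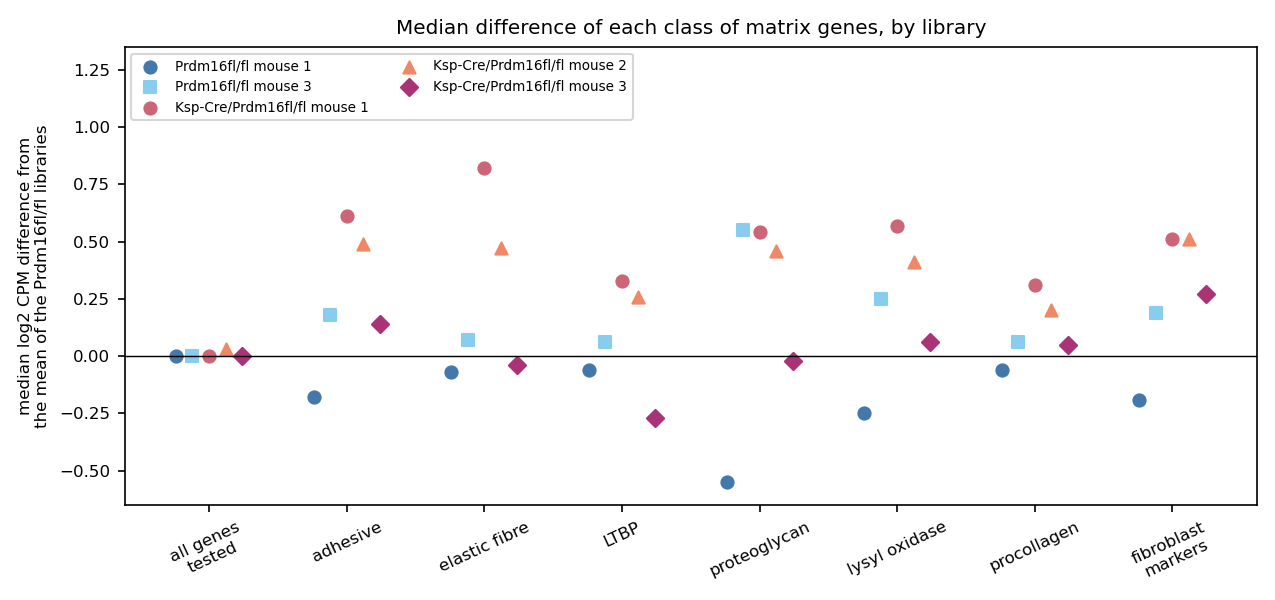
Median over the genes of each role (x axis) of the log2 CPM difference from the mean of the control libraries (y axis), for each of the 5 libraries, with all genes tested and fibroblast markers beside them. Knockout mice 1 and 2 lie above 0 in each role, at 0.20 to 0.82, whereas knockout mouse 3 lies between −0.27 and 0.14. In the proteoglycans the controls are 0.55 below and above their mean.

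Among the matricellular and adhesive glycoproteins, 10 of 12 were tested, 8 had a log2 fold change above 0, and the median was 0.35. Tnc (tenascin-C), a glycoprotein of wounds and remodelling tissue, had 24.1 and 31.1 CPM in the controls and 83.6, 74.3 and 39.1 CPM in the knockout mice. All 3 knockout libraries exceeded both controls, and mouse 3 was the lowest of them. In edgeR its log2 fold change was 1.25 (SE 0.34, adjusted p = 0.133). DESeq2 gave the same size with an adjusted p of 0.00834, and without knockout mouse 3 edgeR gave 1.52 (adjusted p = 5.51e-04). The files place Tnc on chromosome 4 between 63878022 and 63965554, minus strand.

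Thbs1 (thrombospondin-1), which can release active TGF-β from its latent complex, had 89.3 and 67.4 CPM in the controls and 228, 117 and 107 in the knockout mice. The groups did not overlap, and mouse 1 was well above the other knockout libraries. Its log2 fold change of 0.95 (SE 0.36, adjusted p = 0.242, edgeR) was 0.52 without knockout mouse 1 and 1.15 (adjusted p = 0.0244) without knockout mouse 3. Its relative Thbs2 had a log2 fold change of 0.63, with knockout mouse 3 between the controls, and of 0.85 (adjusted p = 0.0052, edgeR) without that mouse. Sparc (osteonectin), a collagen-binding protein, had 276 and 323 CPM in the controls and 465, 413 and 340 in the knockout mice. These did not overlap, although mouse 3 was close to control mouse 3 (log2 fold change 0.44, SE 0.18, adjusted p = 0.262, edgeR, and 0.56 with an adjusted p of 0.0175 without mouse 3).

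Fn1 (fibronectin), the adhesive glycoprotein that the study used as a marker of fibrosis, split the knockout mice. It had 123 and 142 CPM in the controls, 217 and 187 CPM in knockout mice 1 and 2, and 89.6 CPM in knockout mouse 3. Mouse 3 was thus below both controls and the other knockout mice above them. In edgeR its log2 fold change was 0.31 (SE 0.36, adjusted p = 0.679) in all libraries and 0.61 (adjusted p = 0.0104) without mouse 3. It was 0.07 (adjusted p = 0.944) without knockout mouse 1, 0.21 without knockout mouse 2 and 0.08 with the replicate block.

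Igfbp7, a secreted binding protein abundant in vessel walls, was the most abundant gene of the whole group, with a mean of 2330 TPM (transcripts per 1000000), against 339 TPM for Sparc, the next in its role. It had 1090 and 1390 CPM in the controls and 1180, 1080 and 1130 in the knockout mice. The groups overlapped, and the log2 fold change of −0.13 (SE 0.17) had an adjusted p of 0.718 in edgeR. On the TPM scale, which has no TMM scaling, it had 2050 and 2380 in the controls and 2600, 2400 and 2240 in the knockout mice. The direction therefore depends on the scale, and it also turned to 0.06 without control mouse 3.

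Postn (periostin), a matricellular protein of activated fibroblasts, varied most between the controls. It had 1.82 CPM in control mouse 1 and 9.04 in control mouse 3, a ratio of 4.97, and 5.11, 10.3 and 5.66 in the knockout mice. Matn2 also differed between the controls, at 9.91 and 22.5 CPM, and its log2 fold change was −0.01, or 0.14 with library size scaling. The other tested genes of this role, Sparcl1 and Ecm1, had log2 fold changes of 0.32 and 0.14.

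The elastic fibre and microfibril genes had the highest median log2 fold change of the 6 roles, 0.57, with 10 of 11 above 0. In 5 of them (Fbln2, Fbn1, Mfap5, Eln and Mfap2) all knockout libraries exceeded both controls, which 20.3% of all genes also did. Fbln2 (fibulin-2), which links fibrillin and other matrix proteins, had 6.61 and 5.67 CPM in the controls and 16.2, 11.4 and 12.7 in the knockout mice. Here mouse 3 lay with the other knockout libraries, and the lowest of them was well above the higher control. The log2 fold change was 1.13 (SE 0.23, adjusted p = 0.0760 in edgeR and 0.00255 in DESeq2), and it stayed between 0.97 and 1.24 as each library was left out. The files place Fbln2 on chromosome 6 between 91189442 and 91249522, plus strand.

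Fbn1 (fibrillin-1), the backbone of microfibrils, had 21.3 and 23.6 CPM in the controls and 46.6, 41.1 and 29.5 in the knockout mice. The groups did not overlap (log2 fold change 0.80, SE 0.22, adjusted p = 0.131 in edgeR and 0.0334 in DESeq2). Mfap5, a microfibril-associated glycoprotein, had few counts, 1.42 and 3.37 CPM in the controls and 7.27, 5.20 and 4.60 in the knockout mice. Its groups did not overlap, although the controls differed by a ratio of 2.38 (log2 fold change 1.25, SE 0.44, adjusted p = 0.207, edgeR). Eln (elastin) had 16.2 and 18.4 CPM in the controls and 26.0, 20.6 and 35.5 in the knockout mice, and unlike most of these genes it was highest in mouse 3 (log2 fold change 0.66, SE 0.25, adjusted p = 0.232, edgeR).

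Efemp1 (fibulin-3) had the highest level of this role by TPM, with a mean of 48.6. It had 38.4 and 42.4 CPM in the controls, 59.6 and 48.6 CPM in knockout mice 1 and 2, and 27.4 CPM in mouse 3. Mouse 3 was again below both controls, and the log2 fold change was 0.16 (SE 0.31, adjusted p = 0.812, edgeR) with it and 0.43 (adjusted p = 0.0488) without it. In Emilin1, Efemp2, Fbln1 and Fbln5 mouse 3 also lay below both controls. For Fbln1 (fibulin-1), CPM in mouse 3 was 0.306 times the mean of the other knockout mice, the smallest such ratio in the group of 45. Emilin1 and Efemp2 had log2 fold changes of 0.31 and 0.43, and without mouse 3 of 0.55 (adjusted p = 0.0187, edgeR) and 0.66 (adjusted p = 0.0151). Fbln1, at −0.07, was the only gene of this role below 0, and it was at 0.08 with library size scaling. The remaining log2 fold changes were 0.61 for Mfap4, 0.57 for Mfap2 and 0.08 for Fbln5.

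All 4 latent TGF-β binding proteins had a log2 fold change above 0, with a median of 0.15, and none had an unadjusted p under 0.05. Ltbp2, which binds fibrillin and not latent TGF-β, was the most divided. It had 26.0 and 25.3 CPM in the controls, 51.7 and 51.3 CPM in knockout mice 1 and 2, and 20.9 CPM in mouse 3. Its log2 fold change was 0.69 (SE 0.39, adjusted p = 0.402, edgeR) in all libraries and 1.01 (adjusted p = 8.44e-04) without mouse 3. Ltbp3, the most abundant of the 4 by TPM, had 71.5 and 66.3 CPM in the controls and 83.6, 77.0 and 58.0 in the knockout mice, which overlapped (log2 fold change 0.08, SE 0.18, adjusted p = 0.836, edgeR). The direction of Ltbp3 turned to −0.03 without knockout mouse 1. Ltbp1 and Ltbp4 had log2 fold changes of 0.22 and 0.06.

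**Figure D3:**
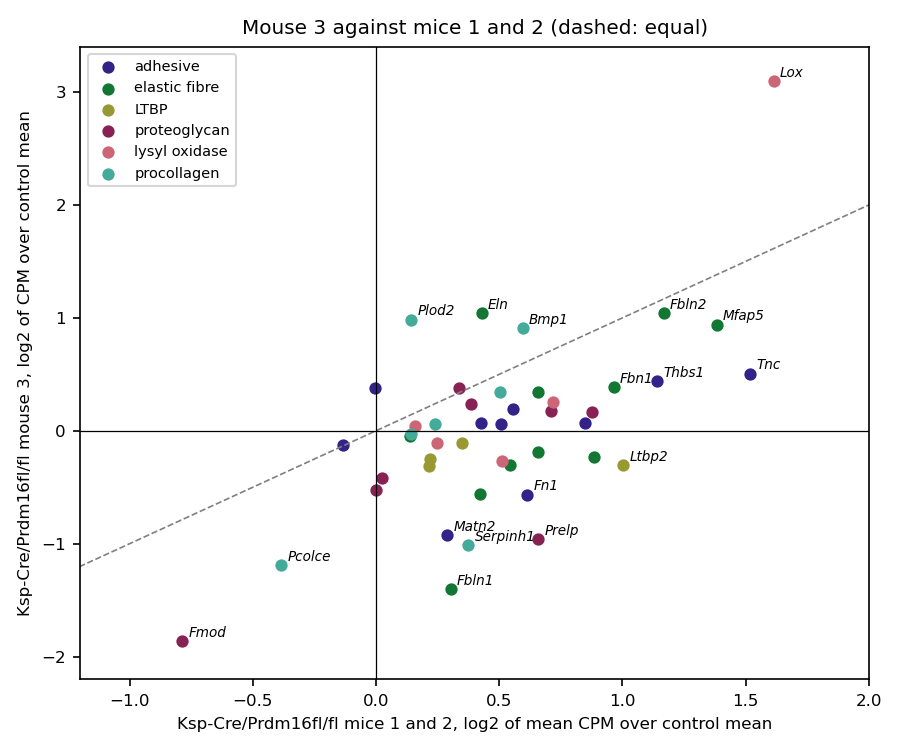
Log2 of CPM over the control mean in knockout mouse 3 (y axis) against that of the mean of knockout mice 1 and 2 (x axis), 1 point per gene, coloured by role. The dashed line marks equal values. 36 of the 45 genes were lower in mouse 3 than in both other knockout mice, and Lox, Plod2, Eln and Bmp1 are among the 6 that were higher.

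In the proteoglycans the controls lay far apart. Of the 8 genes, 5 had a log2 fold change above 0, with a median of 0.32. Bgn (biglycan), by TPM the most abundant proteoglycan here, had 168 and 220 CPM in the controls and 335, 300 and 218 in the knockout mice. Mouse 3 was just under control mouse 3, and the log2 fold change was 0.55 (SE 0.23, adjusted p = 0.264, edgeR), or 0.72 (adjusted p = 0.0109) without mouse 3. Bgn made up 61.2 to 74.8% of the summed proteoglycan TPM of each library. Dcn (decorin), a close relative of biglycan that also binds TGF-β, had 23.9 and 77.9 CPM in the controls, a ratio of 3.26, and 62.7 to 66.0 CPM in the knockout mice. The knockout libraries were close to each other and lay between the controls. The log2 fold change of Dcn was 0.35 (SE 0.44, adjusted p = 0.712, edgeR) and turned to −0.27 without control mouse 1.

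Fmod (fibromodulin), a regulator of collagen fibril growth, had the lowest log2 fold change of the group. It had 3.17 and 6.53 CPM in the controls and 2.95, 2.66 and 1.33 in the knockout mice. All knockout libraries lay below both controls, the highest of them only slightly (log2 fold change −1.06, SE 0.46, adjusted p = 0.291, edgeR). Lum (lumican), Aspn (asporin) and Vcan (versican) were also higher in control mouse 3, at 2.74, 2.48 and 2.39 times control mouse 1, and had log2 fold changes of −0.10 (0.03 with library size scaling), −0.15 and 0.68. Ogn and Prelp had log2 fold changes of 0.34 and 0.30. Prelp in knockout mouse 3 was 0.325 times the mean of the other knockout mice, and without mouse 3 its log2 fold change was 0.67 (adjusted p = 0.0135, edgeR).

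Lox, which encodes the lysyl oxidase that starts the crosslinking of collagen and elastin, had the highest log2 fold change of the 45 genes. It had 9.37 and 13.9 CPM in the controls and 39.2, 31.8 and 99.5 in the knockout mice. All knockout libraries exceeded both controls, and mouse 3 was 2.80 times the mean of the other knockout mice. The log2 fold change was 2.29 (SE 0.56, adjusted p = 0.113 in edgeR and 1.47e-04 in DESeq2). Without mouse 3 it was 1.62, with an adjusted p of 0.00149 in edgeR, and it ranged from 1.62 to 2.60 as each library was left out.

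The other lysyl oxidases had smaller differences. Loxl2 had 17.3 and 25.5 CPM in the controls and 38.5, 31.8 and 25.5 in the knockout mice, with mouse 3 level with the higher control (log2 fold change 0.58, and 0.72 with an adjusted p of 0.0292 in edgeR without mouse 3). Loxl1, Loxl3 and Loxl4 had log2 fold changes of 0.14, 0.12 and 0.30. The makeup of the family by TPM differed accordingly. Lox made up 14.3 and 16.1% of the summed TPM of the 5 enzymes in the controls, 30.7 and 28.5% in knockout mice 1 and 2, and 60.5% in mouse 3. Loxl1, which acts on elastin, made up 46.4 and 41.9% in the controls and 32.4, 33.6 and 18.7% in the knockout mice. Loxl1 was thus the leading family member in 4 libraries and Lox in knockout mouse 3.

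**Figure D4:**
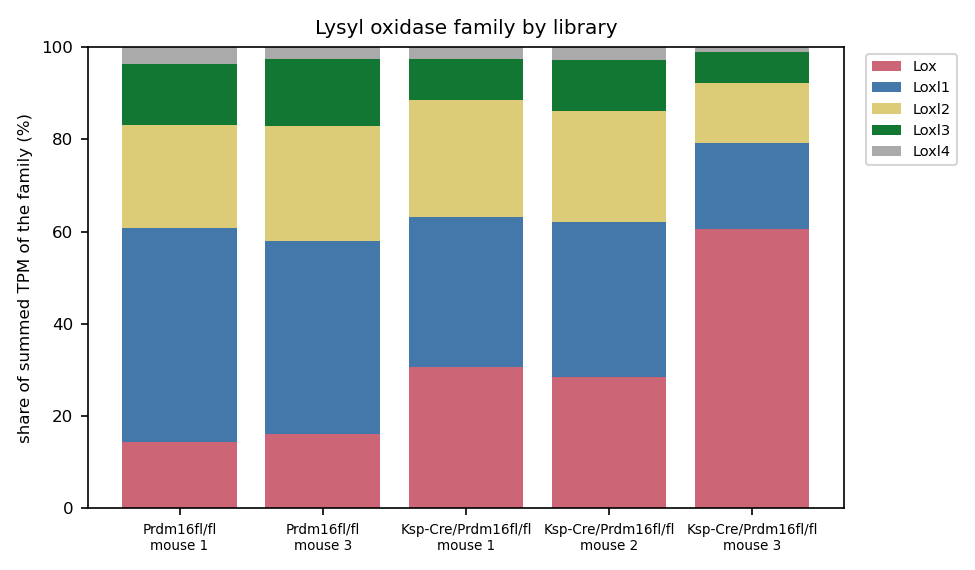
Share of each lysyl oxidase in the summed TPM of the 5 genes (y axis, %), 1 stacked bar per library. The share of Lox was 14.3 and 16.1% in the control libraries and 28.5 to 60.5% in the knockout libraries.

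Of the 7 genes that modify or process procollagen, 6 had a log2 fold change above 0, with a median of 0.18. Bmp1, the protease that removes the C-terminal propeptide of fibrillar procollagens and activates lysyl oxidase, had 34.4 and 36.4 CPM in the controls and 55.3, 51.7 and 66.6 in the knockout mice. The groups were well separated, with mouse 3 the highest (log2 fold change 0.71, SE 0.15, adjusted p = 0.0782 in edgeR and 0.00873 in DESeq2). It stayed between 0.60 and 0.78 as each library was left out. The files place Bmp1 on chromosome 14 between 70711995 and 70758280, minus strand. P3h1, a collagen prolyl 3-hydroxylase whose start region is shown above, had 19.1 and 20.8 CPM in the controls and 29.4, 27.0 and 25.3 in the knockout mice, which did not overlap (log2 fold change 0.45, SE 0.14, adjusted p = 0.163, edgeR).

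Plod2, the lysyl hydroxylase of collagen telopeptides, had 63.4 and 70.0 CPM in the controls, 70.8 and 76.3 CPM in knockout mice 1 and 2, and 132 CPM in mouse 3. Its log2 fold change was 0.48 (SE 0.29, adjusted p = 0.420, edgeR) in all libraries and 0.15 without mouse 3. Plod1 and Plod3 had log2 fold changes of 0.09 and 0.18. Serpinh1, which encodes the collagen chaperone HSP47 and was the most abundant gene of this role by TPM, went the other way in mouse 3. It had 222 and 256 CPM in the controls, 327 and 293 CPM in knockout mice 1 and 2, and 119 CPM in mouse 3 (log2 fold change 0.04, SE 0.41, adjusted p = 0.964, edgeR). Without any 1 of control mouse 1 and knockout mice 1 and 2 the sign of Serpinh1 turned, to −0.06, −0.21 and −0.10.

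Pcolce, which encodes the procollagen C-proteinase enhancer PCPE-1, the partner of BMP1, had 128 and 136 CPM in the controls and 116, 85.4 and 58.0 in the knockout mice. All knockout libraries lay below both controls, and mouse 3 was the lowest (log2 fold change −0.61, SE 0.28, adjusted p = 0.302, edgeR). Bmp1 and Pcolce therefore had log2 fold changes of opposite sign, 0.71 and −0.61.

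**Figure D5:**
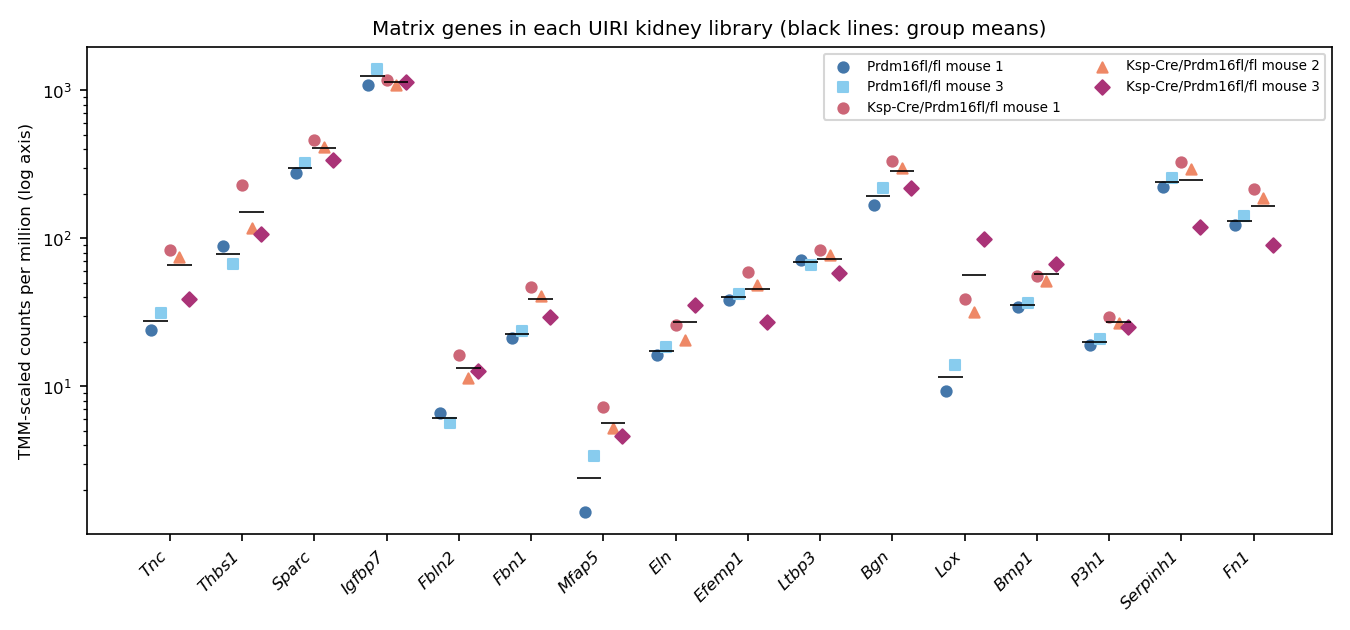
TMM-scaled CPM (y axis, log scale) of 16 matrix genes in each of the 5 libraries, with black lines at the group means. The genes were picked in part because their groups do not overlap, as in Tnc, Fbln2, Lox and Bmp1, whereas Fn1, Efemp1, Ltbp3 and Serpinh1 are lowest in knockout mouse 3.

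Knockout mouse 3 differed from the other knockout mice across the group. It was below both of them in 36 of the 45 genes (80%, against 43.7% of all genes), between them in 3 (Postn, Igfbp7 and Fbln2) and above both in 6 (13.3%, against 42.5%), which were Ecm1, Eln, Dcn, Lox, Plod2 and Bmp1. The ratio of mouse 3 to the mean of the other knockout mice was 2.80 for Lox, 1.80 for Plod2 and 1.52 for Eln, and 0.306 for Fbln1, 0.325 for Prelp and 0.382 for Serpinh1. Because mouse 3 is 1 animal, these ratios have no replicate check.

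Genes that mark the cell types of the cortex also varied between the libraries. In bulk tissue fewer cells of a type and less RNA per cell cannot be told apart. Of 12 fibroblast and myofibroblast markers, 11 were tested, with a median log2 fold change of 0.33, 5 higher and 1 lower at an unadjusted p under 0.05 (background 7.64% and 11.2%), and 0 at an adjusted p under 0.05 in edgeR. Their summed level, which includes Col1a1, Col1a2 and Col3a1, was 523 and 720 CPM in the controls and 1230, 1190 and 813 CPM in the knockout mice, and none of the 12 was at the floor of 3 counts in every library. The 8 macrophage markers summed to 973 and 1370 CPM in the controls and 1580, 1450 and 771 in the knockout mice. All 10 proximal tubule markers had a log2 fold change below 0 (median −1.31, 2 called lower against a background of 0.628%), with sums of 8440 and 8240 CPM in the controls and 3130, 3530 and 1860 in the knockout mice. The 8 injured tubule markers summed to 15100 and 15600 CPM in the controls and 32100, 32800 and 38100 in the knockout mice. Knockout mouse 3 lay above both controls in 6 of the 8 and below both in 2 (42.8% and 43.2% of all genes). Erythroid genes summed to 6.67 and 10.8 CPM in the controls and 151, 150 and 40.5 CPM in the knockout mice. All 6 podocyte markers had a log2 fold change below 0 (median −0.74), as had 7537 of all 16394 genes tested. Of the 6, 1 had an adjusted p under 0.05 in edgeR (background 0.872% lower). All 5 markers of the thick ascending limb and distal tubule were below 0 (median −0.71). They summed to 5060 and 5430 CPM in the controls and 4110, 3640 and 1920 in the knockout mice. All 7 collecting duct markers were also below 0 (median −0.72). Of 6 vascular smooth muscle markers tested, 5 were below 0 (median −0.38). The 4 inner medulla markers summed to 278 and 369 CPM in the controls and 356, 321 and 489 in the knockout mice (median log2 fold change 0.34, lowest −0.22). Knockout mice 1 and 2 both lay above both controls in 1 of the 4 and below both in 1 (32.6% and 30.7% of all genes). The 1 above was Slc14a2, the urea transporter of the inner medulla, which is named for its values and does not stand for the list. It had 0.27 and 4.16 CPM in the controls and 9.71, 7.27 and 23.9 in the knockout mice. The 5 adipocyte markers summed to 30.5 and 30.8 CPM in the controls and 36.4, 33.5 and 62.4 in the knockout mice, nearly all of it Fabp4, with Lep and Adipoq at the floor in every library. Lrrn4 of the capsule and Hsd3b1, Cyp11a1 and Cyp11b1 of the adrenal cortex were also at the floor. The part of these markers in the differences of the matrix genes was not tested.

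Other genes of the same kinds were counted in the same fit. Of 47 other matrix glycoproteins, 39 were tested, with a median log2 fold change of 0.50, and 1 was called in each direction (background 0.0793% higher and 0.628% lower). Spon1 (F-spondin) rose, from 26.6 and 30.4 CPM in the controls to 64.3, 63.1 and 60.4 CPM in the knockout mice (log2 fold change 1.14, SE 0.12, adjusted p = 0.0354, edgeR). Vwa1, a glycoprotein of the pericellular matrix, fell, from 22.9 and 21.2 CPM to 9.31, 8.92 and 8.33 CPM (log2 fold change −1.31, SE 0.15, adjusted p = 0.0411, edgeR). In both, mouse 3 lay close to the other knockout mice. Both calls held without mouse 3 and were lost without any 1 of the other 4 libraries. Without knockout mice 1 and 2 in turn the edgeR adjusted p was 0.117 and 0.136 for Spon1 and 0.123 and 0.145 for Vwa1. Without control mice 1 and 3 in turn the log2 fold changes were 1.04 and 1.24 for Spon1 and −1.26 and −1.37 for Vwa1. Both calls were also lost with the replicate block (adjusted p 0.168 and 0.184, edgeR), and that of Vwa1 with library size scaling (0.0651). At an unadjusted p under 0.05, 12 of the 39 were higher and 5 lower, against a background of 7.64% and 11.2%.

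Of 23 other proteoglycans, 10 were tested, with a median of 0.10 and 0 called by edgeR, and at an unadjusted p under 0.05 there was 1 higher and 2 lower (background 7.64% and 11.2%). The 2 with the smallest p were Spock3 and Tsku, at log2 fold changes of −1.93 (adjusted p = 0.0533) and −1.14 (adjusted p = 0.0628) in edgeR. DESeq2 gave them adjusted p-values of 0.00335 and 6.77e-04. Of 24 other procollagen enzymes, 22 were tested, with a median of 0.09 and 0 called by edgeR, and 3 were higher and 1 lower at an unadjusted p under 0.05 (the same background). Colgalt2, a collagen galactosyltransferase, had a log2 fold change of −0.87 (adjusted p = 0.111, edgeR), and Fkbp10, a collagen chaperone of the endoplasmic reticulum, one of 0.68 (adjusted p = 0.142, edgeR).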

How the data were processed

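RNA-seq of 5 mouse kidney libraries, 1 per mouse, was grouped by genotype as the labels give it. Poly(A) RNA was sequenced on an MGI platform. The authors deposited raw counts per gene without normalization (featureCounts 2.0.1 in the submitters' processing notes), together with TPM and FPKM. TPM and FPKM recomputed from the counts matched the deposited columns to rounding. TPM was used for levels between genes and FPKM for this check alone. The notes name hg38, a human build, whereas the files list mouse genes. File coordinates match GRCm38 in 0 of 47 members, so positions are as the files give them. The aligner and any use of strand are not given in the sources used here. Exons of 14 members overlap those of a gene on the opposite strand, in 7 over more than 5% of the exons (Aspn, Igfbp7, Loxl3, Ltbp2, Plod2, Plod3 and Sparcl1), and these values are uncertain. Mitochondrial genes were not analysed here.

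The lines of 5 genes were broken and were rejoined. The control libraries of mice 1 and 3 held 15215871 and 14939040 counts, and the knockout libraries of mice 1 to 3 held 16425161, 16111708 and 15470435. No libraries were duplicates (chi-square per degree of freedom 9.89 or more). The filterByExpr function of edgeR 4.0.16 kept 16394 genes, which were scaled with TMM and tested between genotypes with its quasi-likelihood test without covariates (R 4.3.3). Calls combined a Benjamini-Hochberg adjusted p under 0.05, over every gene tested, with an absolute log2 fold change of 1 or more. CPM is per 1000000 TMM-scaled counts. The spread is that between mice, and no batch is given in the labels. The fit was tested before use on simulated counts with the same dispersion for every gene and no library standing apart. That test therefore does not cover a library such as that of knockout mouse 3.

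The members and lists were chosen with earlier results of these data known. Members named with all values are those past a threshold, those with an unadjusted p under 0.05 and no overlap between genotypes (at most 4 per role), the member of highest mean TPM in each role, and Fn1. Of other lists, genes with an adjusted p under 0.05 are named, or else the 2 with the smallest p. Ltbp2, Plod2, Pcolce, Fmod, Dcn, Postn and Loxl2 were added after their values were seen. Slc14a2 was likewise picked from the inner medulla markers by its values. Alternatives were DESeq2 1.42.0, other scalings (its size factors, upper quartile, library size), no filter or at least 10 counts in every library, removal of a length and GC trend, a replicate block, and leaving out each library.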

Additional observations from a re-analysis of the deposited data

How the results depend on the processing

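The count of genes called over the whole table, 116 (11.2% of them higher), moved with the setting. It was 502 with DESeq2 (24.1% higher), 46 with library size scaling (26.1% higher), 287 without a filter, 39 with the length and GC trend removed and 0 with the replicate block, and 0 to 733 as each library was left out (733, 31.5% of them higher, in the absence of knockout mouse 3, and 0 in the absence of any other library). Of the matrix genes, DESeq2 called 3 higher, and 0 to 6 were called higher as each library was left out; 0 were called higher under the remaining settings and 0 lower under any. At an unadjusted p under 0.05, 13 were higher and 2 lower with DESeq2, and 14 were higher and 2 lower without a filter. With the replicate block 7 were higher and 0 lower. Leaving out each knockout library gave 6 to 25 higher and 0 to 1 lower. A fit without a control mouse rests on 1 control, so its count at this threshold is not given and may lie outside that range. Over all genes, 2921 of 25633 were under 0.05 in either direction with DESeq2, and 3413 of 25633 without a filter. The number was 2061 of 16394 with the replicate block, and 2298 to 5536 without each knockout library. The genes whose libraries did not overlap were 12 to 32 higher and 2 to 9 lower as each library was left out. With library size scaling they were 16 higher and 1 lower. Leaving out a library can only raise this count, for any gene set. The 32 higher and 2 lower were without knockout mouse 3, where 32.6% of all genes were higher and 30.7% lower. For the other libraries the share of all genes was not counted. The median log2 fold change of the matrix genes ranged from 0.18 to 0.56 over the libraries left out. The cause of these shifts was not tested.

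The sign turned in at least 1 alternative for 16 of the 45 genes tested, 0 of them with an adjusted p under 0.05 in the turned direction, and did not turn for the other 29. Without control mouse 1 it turned for Ecm1, Loxl3 and Ogn, with the replicate block for Prelp (−0.08) and without knockout mouse 1 for Fbln5. For Postn it turned without control mouse 1 (−0.36) and without knockout mouse 2. For Aspn, Fbln1, Ltbp4, Lum and Matn2 it turned under several settings. The other 5 are among the genes given with all values. Igfbp7 was at 0.05 with the length and GC trend removed and −0.30 to 0.06 as each library was left out (0.06 without control mouse 3). Ltbp3 was at −0.02 with the trend removed and −0.03 to 0.22 over the libraries (−0.03 without knockout mouse 1). Efemp1 ranged from −0.08 (without knockout mouse 1) to 0.43. Serpinh1 was at −0.27 with the replicate block and ranged from −0.21 to 0.38 (−0.06 without control mouse 1, −0.21 and −0.10 without knockout mice 1 and 2). Dcn ranged from −0.27 (without control mouse 1) to 1.44. None of these had passed the test. Over 21 named matrix genes and 13 alternatives, 245 of 273 values kept direction and side of the threshold, 18 kept direction and newly passed an adjusted p under 0.05, and 10 turned. Replicate numbers 1 and 3 occur in both groups, and the labels do not say whether they pair the mice. The deviations of same-numbered mice from their group means correlated at 0.00102 and −0.022. With 2 controls the deviations of the controls mirror each other, so these values cannot decide whether the mice are paired.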
